A study of Mus musculus with 8 samples.

Results

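Cd5l encodes AIM, the apoptosis inhibitor of macrophage, a secreted scavenger receptor family protein that is made by tissue macrophages and is most abundant in the liver's own macrophages, the Kupffer cells. The genes described here are Cd5l and 9 others that mark resident Kupffer cells or macrophages in general: Clec4f, Marco, Vsig4, Timd4, Cd163, Folr2, Csf1r, Adgre1 and Cd68. They were chosen by name, as the non-control probes whose gene name is one of these symbols (Adgre1 is listed on the array under its older name Emr1). This gave 13 probes of 41174 on the array, of which 12 were well above background on at least 2 of the 8 arrays, and 10 of the 15342 genes measured; all 10 named genes were measured.

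The study set obese AIM-/- mice, which lack Cd5l (AIM-KO), against AIM+/+ mice (WT), both on a C57Bl/6 background. AIM-KO livers were sampled on normal chow (0 weeks of high-fat diet) and after 6, 12 and 20 weeks of high-fat diet, and WT livers at the same 4 times, with 1 array for each genotype and time. Total RNA of whole liver was labelled with 1 dye (Cy3) and hybridised to 1-colour Agilent whole-mouse-genome arrays. The knockout is carried by the whole animal, and the labels used here do not give the number of animals behind an array. With 1 array a condition there is no spread within a condition, so neighbouring levels of a gene cannot be ranked against an error. Values are given as scaled signal, the array's processed fluorescence after each array's 75th percentile was set to the same level of 284; a scaled signal can be compared between arrays for 1 probe and not between genes.

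The array set has limits that touch every comparison. All 4 AIM-KO arrays lay on one slide and all 4 WT arrays on another, so genotype and slide cannot be told apart, whereas comparisons between weeks within a genotype stayed on 1 slide. Both 20-week arrays went against the other 6 in sex-linked genes. Ddx3y, a Y-linked gene, had scaled signals of 1033 to 1683 on the chow, 6-week and 12-week arrays, against 4.6 in AIM-KO and 5.6 in WT at 20 weeks, and the brightest probe of Xist, the RNA of the inactive X chromosome, had 3692 in AIM-KO and 3956 in WT at 20 weeks, against at most 14.4 on the others. A second Xist probe, at 764 in AIM-KO and 806 in WT at 20 weeks, was also well above background in AIM-KO at 6 weeks (155) and in WT at 12 weeks (67.0). Time on diet at 20 weeks and this difference cannot be told apart. Genotype, diet and line results of Cd5l and of some of the other markers are therefore given without 20 weeks too. The tests, fitted changes and sums of the lists of other genes are given only with 20 weeks included. So are the search for genes of nearest course and the counts over several weeks that include 20 weeks. For those results the difference in sex-linked genes was not removed. Time on diet also cannot be told apart from age. Between 18589 and 21120 probes were well above background on each array. Hepatocyte markers were present on all arrays, with 7 of 8 listed genes measured. Their summed scaled signal was 940581 to 1137720 in AIM-KO and 992553 to 1228430 in WT livers.

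Kupffer cells line the liver sinusoids, where they clear particles, dying cells, complement-coated microbes and haemoglobin from the blood through a set of surface receptors. The resident cells descend largely from embryonic precursors and depend on signalling through Csf1r, and when they are lost, monocytes from the blood can enter the niche and take on Kupffer cell genes in steps, with Timd4 known in mice as one of the slowest to be acquired. In mouse macrophages the transcription factor Spi1 and the liver X receptor Nr1h3 act on this programme, and Cd5l is a known target of liver X receptors.

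The start regions of 6 of the genes are printed because their signals took different courses over the diet: Cd5l, the gene knocked out; Marco, Timd4, Vsig4 and Cd163, which were at least 2-fold lower in AIM-KO than in WT at 20 weeks; and Clec4f, which was not. Each is the RefSeq window of GRCm38.p6 from 250 bases before to 50 bases after the gene start, 5′ to 3′ on the gene's strand. Of the 10 genes, 8 were matched in the table; Csf1r and Adgre1 were not. Capitals mark, on either strand, the letters GAGGAA (a core bound by Spi1) and AGGTCA (part of a nuclear receptor element).
Cd5l (chr3:87357631-87357930, + strand): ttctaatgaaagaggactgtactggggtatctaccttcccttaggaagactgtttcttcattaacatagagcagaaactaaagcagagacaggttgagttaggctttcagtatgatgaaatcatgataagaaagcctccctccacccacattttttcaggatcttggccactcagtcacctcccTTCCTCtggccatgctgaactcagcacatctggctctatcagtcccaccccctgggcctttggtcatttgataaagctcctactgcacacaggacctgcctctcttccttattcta
Marco (chr1:120504975-120505274, - strand): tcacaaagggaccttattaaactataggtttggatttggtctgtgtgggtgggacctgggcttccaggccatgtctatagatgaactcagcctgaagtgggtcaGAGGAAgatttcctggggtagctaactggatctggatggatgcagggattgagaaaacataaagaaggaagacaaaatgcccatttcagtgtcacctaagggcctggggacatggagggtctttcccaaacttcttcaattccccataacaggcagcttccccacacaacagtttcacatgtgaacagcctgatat
Timd4 (chr11:46810549-46810848, + strand): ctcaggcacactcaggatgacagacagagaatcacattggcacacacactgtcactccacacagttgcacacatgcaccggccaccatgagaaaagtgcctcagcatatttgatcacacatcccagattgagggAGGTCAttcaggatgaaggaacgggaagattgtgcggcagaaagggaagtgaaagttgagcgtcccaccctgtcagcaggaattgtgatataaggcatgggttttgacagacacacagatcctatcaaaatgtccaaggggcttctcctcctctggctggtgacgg
Vsig4 (chrX:96293389-96293688, - strand): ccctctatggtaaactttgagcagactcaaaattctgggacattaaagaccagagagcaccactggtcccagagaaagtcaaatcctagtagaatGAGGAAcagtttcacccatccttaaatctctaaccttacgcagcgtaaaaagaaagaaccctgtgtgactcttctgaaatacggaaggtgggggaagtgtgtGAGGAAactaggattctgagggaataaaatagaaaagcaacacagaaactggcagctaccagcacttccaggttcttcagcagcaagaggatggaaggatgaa
Cd163 (chr6:124304401-124304700, + strand): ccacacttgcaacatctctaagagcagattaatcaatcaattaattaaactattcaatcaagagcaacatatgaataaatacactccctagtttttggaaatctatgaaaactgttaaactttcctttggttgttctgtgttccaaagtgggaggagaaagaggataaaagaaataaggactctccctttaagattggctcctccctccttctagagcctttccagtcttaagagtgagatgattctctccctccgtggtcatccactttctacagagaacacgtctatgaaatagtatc
Clec4f (chr6:83656067-83656366, - strand): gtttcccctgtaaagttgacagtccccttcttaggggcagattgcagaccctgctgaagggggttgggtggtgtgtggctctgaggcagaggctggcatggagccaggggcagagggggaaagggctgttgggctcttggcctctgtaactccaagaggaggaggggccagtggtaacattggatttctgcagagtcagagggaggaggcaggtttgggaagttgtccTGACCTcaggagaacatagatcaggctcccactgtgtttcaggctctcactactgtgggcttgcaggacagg
Across 32851 such windows in the table, 28.3% held GAGGAA and 16.3% held AGGTCA on at least 1 strand. GAGGAA stood in the windows of Cd5l, Marco, Vsig4 and Cd68, and AGGTCA in those of Clec4f and Timd4. In the Cd5l window GAGGAA lay 66 bases before the start. The Cd163 window held neither letter run. Marco, Timd4 and Cd163 thus held different sets of these letters.

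Cd5l itself was the first check of the genotype labels. Its probe, at chr3:87456828-87456887 on mm8, had scaled signals of 90.9, 131, 173 and 128 in AIM-KO livers at 0, 6, 12 and 20 weeks, against 11787, 24253, 30616 and 21238 in WT livers. Every AIM-KO array lay far below every WT array, and the AIM-KO signal was 0.771%, 0.542%, 0.564% and 0.603% of the WT signal at the 4 times. All 4 AIM-KO values were still well above background; whether the probe lies in the deleted stretch is not given in the sources used here, and the source of this remaining signal was not tested. Over the 4 weeks the log2 difference, AIM-KO minus WT, was -7.35 (SE 0.12, n = 4 arrays against 4, adjusted p = 0.000333, limma with week as a factor). Cd5l was 1 of the 5 genes of 15342 past the threshold of adjusted p under 0.05, 0.0326% of the genes tested. Among the other 9 genes, 0 passed; 858 genes of all (5.59%) had an unadjusted p under 0.05, 3 of the 9 among them.

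In WT livers on the high-fat diet Cd5l stood higher than on chow at all 3 times. The log2 change from chow was 1.04, 1.38 and 0.85 at 6, 12 and 20 weeks, highest at 12 weeks. The mean of the 3 diet arrays minus chow was 1.09 (SE 0.28, n = 3 against 1, adjusted p = 0.412 in limma), which did not pass the test, and it was 1.21 without the 20-week arrays. By limma 0 of the 15342 genes passed in this comparison (0%), while 1242 (8.1%) had an unadjusted p under 0.05, Cd5l and 2 of the other 9 among them. In AIM-KO livers the remaining Cd5l signal had the same order of weeks, with log2 changes from chow of 0.53, 0.93 and 0.49 and a mean of 0.65 (SE 0.28, adjusted p = 0.452).

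**Figure D1:**
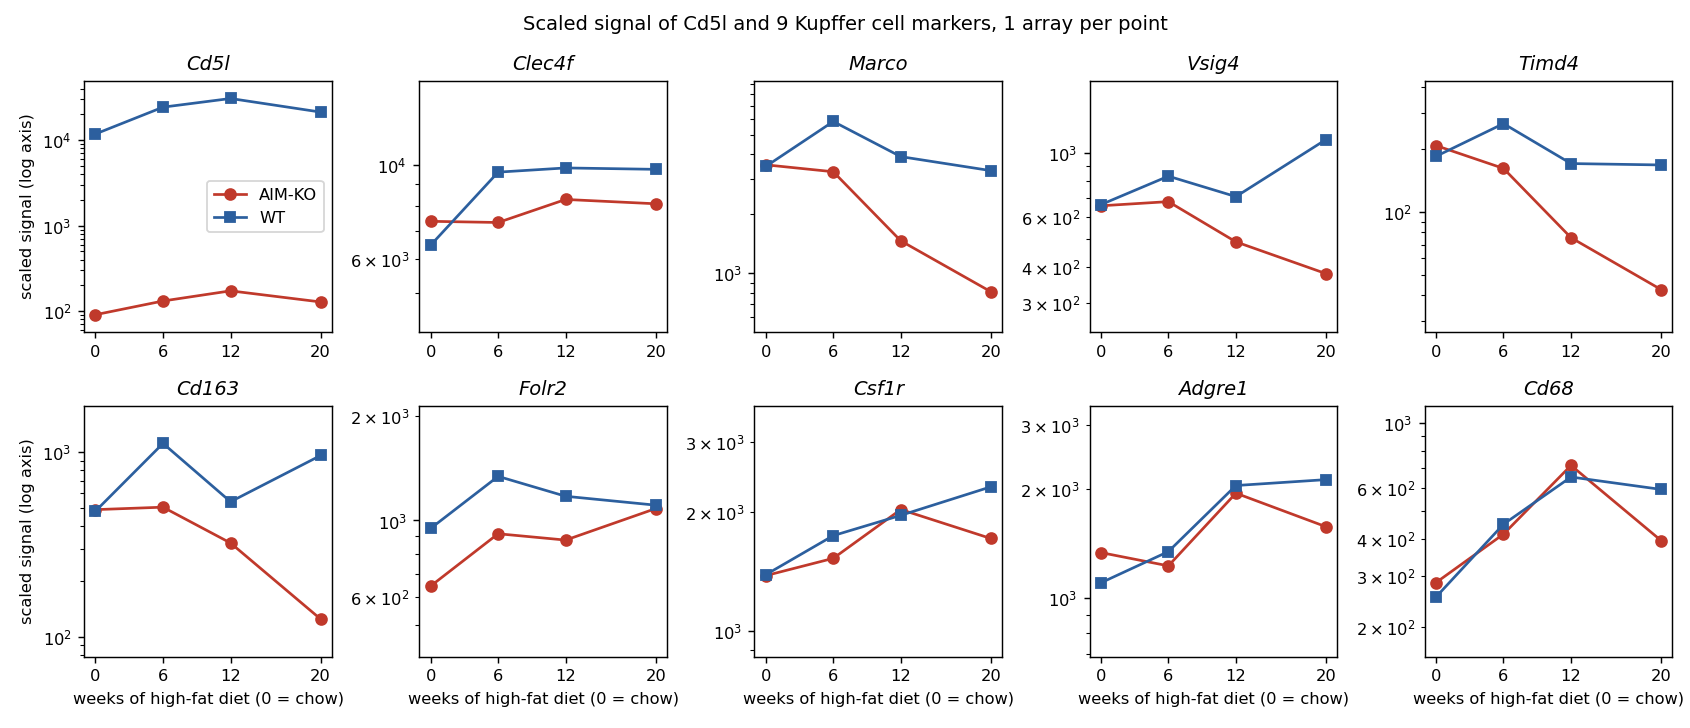
Scaled signal (log axis) of each of the 10 genes against weeks of high-fat diet, with 0 for chow; each point is 1 array, AIM-KO and WT are coloured separately and there are no error bars because each condition has 1 array. Cd5l is separated by genotype at every week (90.9 to 173 in AIM-KO, 11787 to 30616 in WT), and Marco, Timd4, Vsig4 and Cd163 part over the weeks of diet.

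Clec4f, a galactose-binding lectin that is restricted to Kupffer cells in mice, had nearly level signals in AIM-KO livers. Its scaled signals (chr6:83610945-83611003, mm8) were 7373, 7327, 8299 and 8107 in AIM-KO at 0, 6, 12 and 20 weeks, against 6478, 9620, 9841 and 9767 in WT. The AIM-KO array was the higher of the pair on chow and the lower at each week of diet, and the genotype difference over all weeks was -0.18 (log2, SE 0.13, adjusted p = 0.999). The largest single difference was -0.39 at 6 weeks.

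Marco, a scavenger receptor with a collagen-like stem that binds bacteria and particles, showed one of the widest partings. It had scaled signals of 3533, 3260, 1461 and 809 in AIM-KO, against 3465, 5845, 3886 and 3302 in WT (chr1:122302084-122302103, mm8). The genotypes were alike on chow, and the log2 difference, AIM-KO minus WT, was 0.03 on chow and -0.84, -1.41 and -2.03 at 6, 12 and 20 weeks.

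Timd4, a receptor for phosphatidylserine on dying cells, followed a similar course. Its scaled signals were 209, 162, 75.5 and 42.6 in AIM-KO, against 185, 266, 171 and 168 in WT (chr11:46687094-46687153, mm8). The AIM-KO value at 20 weeks was the lowest of the 8 arrays, and the log2 difference was 0.17 on chow and -0.71, -1.18 and -1.98 on the diet.

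Vsig4, the complement receptor through which Kupffer cells catch complement-coated microbes, parted later. It had scaled signals of 655, 677, 490 and 380 in AIM-KO, against 661, 831, 705 and 1115 in WT (chrX:92450537-92450596, mm8). The log2 difference was -0.01 on chow and -0.29, -0.52 and -1.55 on the diet, and the WT value at 20 weeks was the highest of the 8.

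Cd163, the receptor for haemoglobin bound to haptoglobin and, like Cd5l and Marco, a member of the scavenger receptor cysteine-rich family, moved unevenly. Its scaled signals were 488, 503, 322 and 125 in AIM-KO, against 479, 1114, 539 and 958 in WT (chr6:124296085-124296144, mm8). The WT arrays at 6 and 20 weeks were the high ones, and the log2 difference was 0.03 on chow and -1.15, -0.74 and -2.94 on the diet. At 20 weeks the WT signal was 7.67 times the AIM-KO signal for Cd163, 4.08 times for Marco, 3.96 times for Timd4 and 2.93 times for Vsig4.

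Folr2, a folate receptor of resident macrophages, ran the other way in time. It had scaled signals of 646, 916, 878 and 1082 in AIM-KO, against 948, 1341, 1175 and 1107 in WT (chr7:101714078-101714137, mm8). Its log2 difference was -0.55 already on chow and -0.03 at 20 weeks, so the genotypes were closest at the time when Marco, Timd4, Vsig4 and Cd163 were farthest apart.

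The 3 general macrophage markers stayed close between genotypes. Csf1r, the receptor for the macrophage growth factors Csf1 and Il34, had scaled signals of 1382, 1527, 2026 and 1713 in AIM-KO, against 1389, 1742, 1959 and 2311 in WT. Its second measured probe gave 296, 354, 389 and 368 in AIM-KO, against 315, 354, 444 and 571 in WT, with the highest value of both probes in WT at 20 weeks. Another Csf1r probe was well above background on only 3 arrays and was not the one used. It gave 22.8, 22.4, 64.9 and 31.6 in AIM-KO, against 29.9, 29.6, 27.1 and 29.8 in WT, so its highest value was in AIM-KO at 12 weeks.

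Adgre1, an adhesion G-protein-coupled receptor used to identify mouse macrophages, had scaled signals of 1335, 1227, 1947 and 1573 in AIM-KO, against 1101, 1343, 2044 and 2122 in WT (chr17:57168755-57168814, mm8). Its other probe did not rise well above background anywhere. Cd68, a glycoprotein of the macrophage lysosome, had 284, 417, 715 and 396 in AIM-KO, against 254, 450, 653 and 592 in WT (chr11:69481007-69481066, mm8). Both genes were brighter on every diet array than on the chow array of the same genotype in WT, and in AIM-KO this held for Cd68 only, since Adgre1 was lower at 6 weeks than on chow. The log2 difference at 20 weeks was -0.43 for Csf1r, -0.43 for Adgre1 and -0.58 for Cd68, and at chow and the 2 earlier diet times it lay between -0.19 and 0.28 for these 3 genes.

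In bulk liver RNA, fewer Kupffer cells and less RNA per Kupffer cell cannot be told apart for any of these genes.

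**Figure D2:**
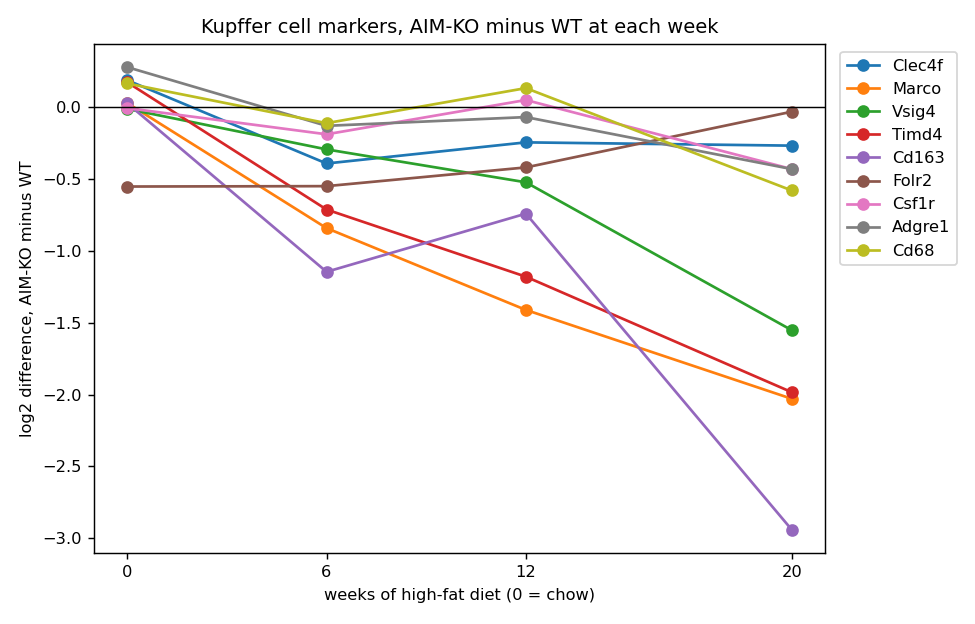
Log2 difference, AIM-KO minus WT, of the 9 markers other than Cd5l (vertical axis) at each time on the diet (horizontal axis, weeks, 0 for chow); each point sets 1 array against 1, and lines join the weeks of a gene. Marco, Timd4, Vsig4 and Cd163 reach -2.03, -1.98, -1.55 and -2.94 at 20 weeks, while the other 5 stay between -0.58 and -0.03 there.

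Week by week, the 9 markers other than Cd5l were not shifted between genotypes on chow and were lower in AIM-KO on the diet. On chow 3 of the 9 were lower in AIM-KO than in WT by any size, where 48.3% of all genes were, and their median difference was 0.03 (log2, all genes 0.01). At 6 weeks 9 of 9 were lower (55.7% of all genes), at 12 weeks 7 of 9 (50.5%) and at 20 weeks 9 of 9 (44.7%). Their medians were -0.39, -0.42 and -0.58, against -0.05, 0.00 and 0.03 over all genes.

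At least 2-fold lower in AIM-KO were 0 of the 9 on chow (4.93% of all genes), 1 at 6 weeks (3.88%), 2 at 12 weeks (2.41%) and 4 at 20 weeks (2.33%). Lower at all 3 diet times were 7 of 9, where 12.4% of all genes were. The 4 genes Marco, Timd4, Vsig4 and Cd163 were lower at all 3 and at least 2-fold lower at 20 weeks, as were 0.567% of all genes. For Marco, Timd4 and Vsig4 the difference was lower at each successive time, as for 2.78% of all genes.

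Over the 4 weeks together, the genotype test of the 9 gave differences that were negative for 9 of 9, with a median of -0.39 (all genes 0.00), and none of them passed. Cd163 had -1.20 (log2, SE 0.49, adjusted p = 0.92), Marco -1.06 (SE 0.35, adjusted p = 0.812), Timd4 -0.93 (SE 0.36, adjusted p = 0.889), Vsig4 -0.60 (SE 0.27, adjusted p = 0.956) and Folr2 -0.39 (SE 0.13, adjusted p = 0.811) in limma. Marco, Timd4 and Folr2 had an unadjusted p under 0.05 with the lower side in AIM-KO, 3 of 9 where 3.78% of all genes did. AIM-KO was the lower at all 4 times for Cd5l, Vsig4 and Folr2, as for 7.16% of all genes. The 4 AIM-KO arrays lay all below the 4 WT arrays for Cd5l only, where 1.64% of all genes did so.

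Without the 20-week pair the differences were -0.74 for Marco, -0.57 for Timd4, -0.62 for Cd163, -0.28 for Vsig4 and -0.51 for Folr2, and the median of the 9 was -0.28. Adgre1 and Cd68 then had 0.026 and 0.061, against -0.09 and -0.10 with all weeks. Cd5l kept its call without that pair (-7.34, adjusted p = 0.0192).

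**Figure D3:**
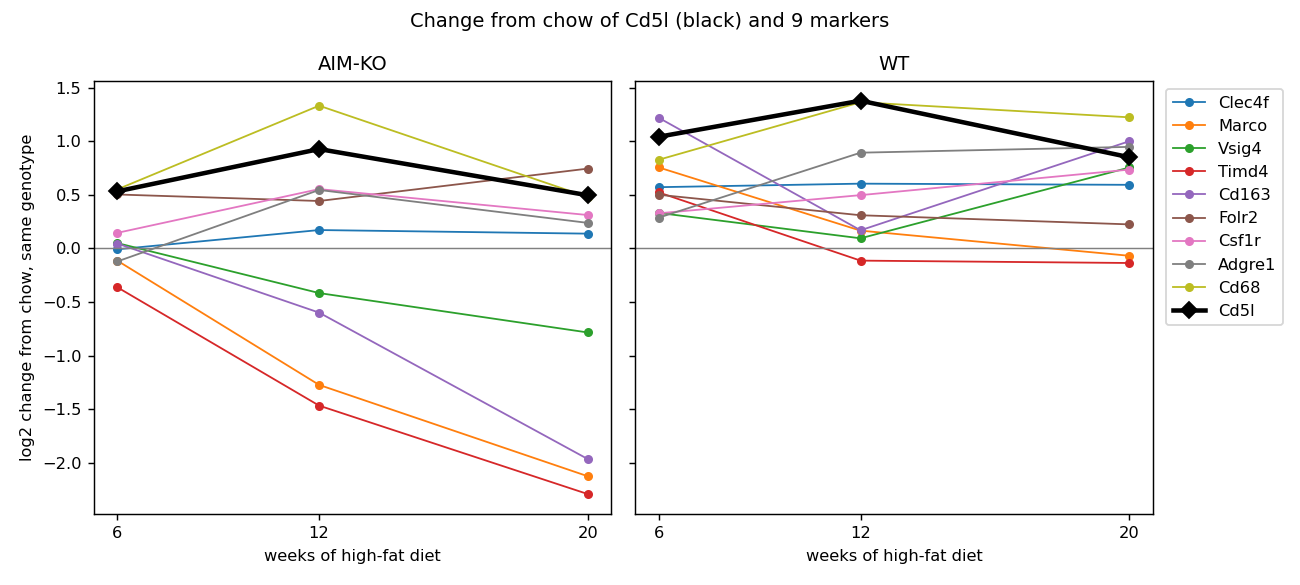
Log2 change from the chow array of the same genotype (vertical axis) for Cd5l and the 9 other markers at 6, 12 and 20 weeks of high-fat diet, with AIM-KO beside WT; each point is 1 diet array minus the 1 chow array of that genotype. In WT, Cd5l reached 1.04, 1.38 and 0.85, where the median of the other 9 was 0.52, 0.31 and 0.73.

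Whether Cd5l went up with or beyond the other markers in WT depended on the week. All 3 diet times share the chow array, so an unusual chow value moves them together. At 6 weeks Cd5l stood 1.04 above chow on the log2 scale, 0.52 more than the median of the other 9, and Cd163 alone had a larger change. At 12 weeks it was 1.07 above that median and the highest of the 10. Cd68 was level with it there, at 1.36 against 1.38 for Cd5l, and single arrays cannot rank these values. At 20 weeks it was 0.12 above it, and Cd163, Adgre1 and Cd68 had larger changes. An excess over the other markers was not particular to WT. In AIM-KO the remaining Cd5l signal stood 0.49, 0.76 and 0.36 above the median of the other 9 at 6, 12 and 20 weeks. It ranked 2 of 10 each time.

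Gene by gene, the change of Cd5l from chow was the larger at all 3 diet times against Clec4f, Marco, Vsig4, Timd4, Folr2 and Csf1r. It was the larger at 2 of 3 times against Adgre1 and Cd68, and at 1 of 3 against Cd163. Against Cd68 the margin at 12 weeks was only 0.014. A change at least that of Cd5l was found for 4.24%, 5.42% and 12.4% of all genes at 6, 12 and 20 weeks. At all 3 times together 1.6% of all genes had one, and 0 of the other 9 markers did.

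The other markers also stood above chow in WT livers. The mean change on the diet was positive for 9 of 9, with a median of 0.52 (all genes -0.01). Cd68 had 1.14 (log2, SE 0.40, adjusted p = 0.558), Cd163 0.79 (SE 0.80, adjusted p = 0.84), Adgre1 0.71 (SE 0.37, adjusted p = 0.699) and Clec4f 0.59 (SE 0.17, adjusted p = 0.458) in limma with 4 cells of genotype and diet. At an unadjusted p under 0.05, Clec4f and Cd68 were higher, 2 of 9 where 4.24% of all genes were. Above chow at all 3 times were 7 of the 9 (25.9% of all genes), the exceptions being Marco, lower at 20 weeks, and Timd4, lower at 12 and 20 weeks.

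In AIM-KO livers the 9 markers divided. Marco (-1.17, SE 0.75), Timd4 (-1.37, SE 0.71), Cd163 (-0.84, SE 0.80) and Vsig4 (-0.38, SE 0.39) had negative mean changes on the diet, and the other 5 had positive ones, with a median of 0.10. By limma 10 genes of all passed in this comparison (0.0652%) and 0 of the 9 did, while 1770 genes (11.5%) had an unadjusted p under 0.05; of the 9, Folr2 (0.56, SE 0.21, adjusted p = 0.402) was the only one with such a p, on the higher side, where 6.23% of all genes were.

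Marco and Timd4 were below chow at all 3 times in AIM-KO, as were 33.6% of all genes, and Folr2, Csf1r and Cd68 were above it at all 3, as were 29% of all genes. The difference of the diet change between genotypes, AIM-KO minus WT, was negative for 8 of 9, with a median of -0.49 and a range of -1.64 for Cd163 to 0.22 for Folr2. By limma 0 of all genes passed (0%), 680 (4.43%) had an unadjusted p under 0.05 and 0 of the 9 did. For Cd5l this difference was -0.44 (SE 0.40). Without the 20-week arrays the mean diet change in AIM-KO was -0.70 for Marco, -0.92 for Timd4, -0.28 for Cd163 and -0.18 for Vsig4, and the median difference of the 9 between genotypes was -0.40.

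Over the weeks of diet in AIM-KO livers, Marco, Timd4, Cd163 and Vsig4 were lower at 12 than at 6 weeks and lower again at 20 than at 12 weeks. This held for 4 of 9, where 13.5% of all genes did so. In WT livers Marco, Timd4 and Folr2 were lower at both steps, 3 of 9 where 26.8% of all genes were.

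The fitted log2 change over the diet, taken as a straight line through 6, 12 and 20 weeks, was -1.98 for Marco in AIM-KO (SE 0.31, adjusted p = 0.804), against -0.80 in WT (SE 0.31). It was -1.90 for Timd4 in AIM-KO (SE 0.34, adjusted p = 0.804), against -0.62 in WT (SE 0.34). For Cd163 it was -2.03 in AIM-KO (SE 0.61), against -0.13 in WT (SE 0.61). For Vsig4 it was -0.82 in AIM-KO (SE 0.33), against 0.46 in WT (SE 0.33). The size for Timd4 depended on the background correction. An alternative one (normexp) gave -1.11 for Timd4 in AIM-KO, against -0.44 in WT. For Marco it gave -1.84 in AIM-KO, against -0.76 in WT.

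The line left 2 residual degrees of freedom, and by limma 0 genes of all passed for AIM-KO (0%), for WT (0%) or for the difference of both lines (0%), so a missed p here does not show that a gene held its level. At an unadjusted p under 0.05 there were 670 genes for AIM-KO (4.37%), 1268 for WT (8.26%) and 333 for the difference (2.17%). Marco, Timd4 and Cd163 were among them in AIM-KO on the lower side, 3 of 9 where 1.85% of all genes were, and none of the 9 was in WT or in the difference. The difference of the lines, AIM-KO minus WT, was -1.18 (SE 0.44) for Marco, -1.28 (SE 0.48) for Timd4, -1.29 (SE 0.47) for Vsig4 and -1.90 (SE 0.86) for Cd163.

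The other 5 markers did not share this course. In AIM-KO the fitted change was 0.13 for Clec4f (SE 0.23), 0.26 for Folr2 (SE 0.24), 0.13 for Csf1r (SE 0.29), 0.31 for Adgre1 (SE 0.41) and -0.15 for Cd68 (SE 0.56), and the median of the 9 was -0.15. In WT the median was 0.02. Cd5l had -0.08 in AIM-KO (SE 0.40) and -0.23 in WT (SE 0.40).

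**Figure D4:**
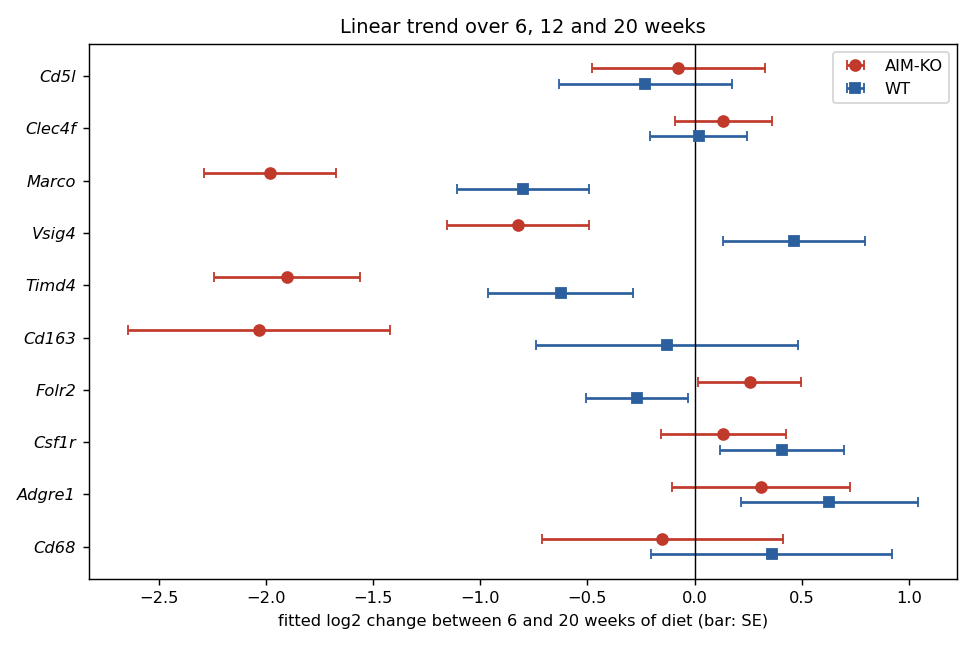
Fitted log2 change from 6 to 20 weeks of high-fat diet for Cd5l and the 9 other markers, AIM-KO beside WT; points are the slopes scaled to that interval and bars are 1 standard error from limma (3 diet arrays a genotype). Marco, Timd4 and Cd163 lie at -1.98, -1.90 and -2.03 in AIM-KO, against -0.80, -0.62 and -0.13 in WT.

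The part of this course that does not use the 20-week arrays is the step between 6 and 12 weeks. Its log2 size in AIM-KO was -1.16 for Marco, -1.10 for Timd4, -0.64 for Cd163 and -0.47 for Vsig4, against -0.59, -0.64, -1.05 and -0.24 in WT. At least 2-fold lower at 12 than at 6 weeks were 2 of 9 in AIM-KO (3.66% of all genes), against 1 of 9 in WT (4.25%). The 1 in WT was Cd163, whose step was larger there than in AIM-KO. A line through 0, 6 and 12 weeks, scaled to the same interval, gave -1.49 for Marco, -1.71 for Timd4, -0.70 for Cd163 and -0.49 for Vsig4 in AIM-KO, against 0.19, -0.13, 0.20 and 0.11 in WT. The difference of these lines was -1.68 for Marco and -1.58 for Timd4, and it was -0.90 for Cd163 and -0.60 for Vsig4, against -1.90 and -1.29 with the line through 6, 12 and 20 weeks. At least 2-fold lower at 20 than at 6 weeks were 3 of 9 in AIM-KO (3.09%), against 0 of 9 in WT (4.39%).

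The wider list of 40 other genes that resident macrophages express, all 40 measured, did not as a set follow Marco and Timd4. Their median genotype difference was -0.01, with 21 of 40 negative and 0 past the test. By week the median difference was 0.24 on chow and -0.23, 0.18 and -0.20 at 6, 12 and 20 weeks. Their median fitted change over the diet in AIM-KO was 0.25, with 7 of 40 negative. Fcna, a ficolin of Kupffer cells, had the smallest unadjusted p of the named ones (-0.53, SE 0.10, adjusted p = 0.411 in limma). Its scaled signals were 1031, 1279, 695 and 1038 in AIM-KO, against 1636, 1604, 1087 and 1462 in WT, lower in AIM-KO at every week.

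C6, a terminal complement component that mouse Kupffer cells express, was another named one (-0.45, SE 0.27, adjusted p = 0.999). It had 5184, 2582, 1729 and 290.3 in AIM-KO, against 5501, 5712, 1410 and 534 in WT, so low values at 20 weeks were found in both genotypes. The fitted change of C6 over the diet in AIM-KO was -3.23 (SE 0.59, adjusted p = 0.81 in limma), a steeper fall than that of Marco. Id3, a transcriptional regulator of Kupffer cell identity, had a genotype difference of 0.54 (SE 0.27), and Vcam1, an adhesion molecule, 0.48 (SE 0.36). On the diet in WT livers the median change of the 40 was 0.78, with 5 negative, 0 past the test and 10 with an unadjusted p under 0.05 on the higher side (4.24% of all genes); in AIM-KO livers the median change was 0.38.

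Genes of recruited monocytes and lipid-associated macrophages (10 of 16 measured) had a positive median difference until 12 weeks and a negative one at 20 weeks. It was 0.36 on chow and 0.88, 0.63 and -0.68 at 6, 12 and 20 weeks, with a median of 0.45 in the genotype test and 0 past it. Trem2, a lipid receptor of such cells, had scaled signals of 284, 374, 1811 and 741 in AIM-KO, against 75.3, 211, 1100 and 956 in WT. Spp1, which encodes osteopontin, had 544, 2053, 27324 and 8040 in AIM-KO, against 461, 704, 9651 and 11861 in WT. Itgax and Gpnmb had genotype differences of 0.65 and 0.62.

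**Figure D5:**
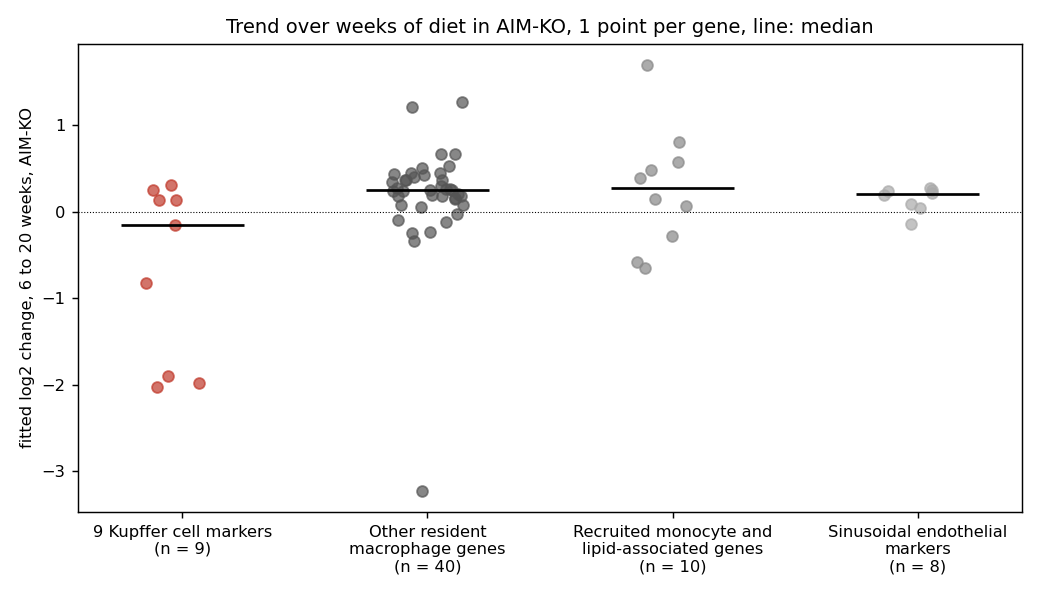
Fitted log2 change from 6 to 20 weeks in AIM-KO livers (vertical axis), 1 point a gene, with a line at each median. Beside the 9 markers stand other resident macrophage genes, recruited monocyte and lipid-associated macrophage genes, and sinusoidal endothelial markers. The 9 markers have a median of -0.15 and 3 of them lie near -2. The 40 other resident macrophage genes have a median of 0.25, with C6 at -3.23.

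Markers of other liver cells are given beside these results, and their part in them was not tested. The 3 unmeasured neutrophil markers (Ngp, Camp and Cxcr2) and the 3 unmeasured T and NK cell markers (Cd3g, Cd4 and Klrb1c) had no probe well above background on 2 or more arrays. Sinusoidal endothelial markers (8 of 8 measured) had summed scaled signals of 8502 to 10257 in AIM-KO and 7286 to 13032 in WT, with a median genotype difference of 0.01. Neutrophil markers (5 of 8 measured) summed to 657 to 1777 in AIM-KO and 1799 to 4567 in WT, and 3 of the 5 had an unadjusted p under 0.05 on the lower side (3.78% of all genes). Most of each sum came from S100a9, with 527, 797, 1417 and 1571 in AIM-KO, against 1602, 2268, 2201 and 4063 in WT. The AIM-KO arrays lay all below the WT arrays for S100a9 and S100a8, as for 1.64% of all genes, and not for Ltf, Retnlg and Csf3r. T and NK cell markers (7 of 10) summed to 909 to 4359 in AIM-KO and 677 to 2002 in WT, with a median genotype difference of 0.34. Here most of each sum came from Ccl5, with 841, 630, 3527 and 1746 in AIM-KO, against 396, 614, 1084 and 1494 in WT.

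Pathway genes around these markers did not pass the tests. Of the 9 measured growth factor and niche genes (of 11 listed), 0 passed by genotype or diet. The largest genotype differences among them were 1.46 for Id1 (log2, SE 0.55, adjusted p = 0.876 in limma), 0.72 for Dll4 (SE 0.43), -0.55 for Acvrl1 (SE 0.20, adjusted p = 0.869) and that of Id3, given above. Id1, a target of bone morphogenetic protein signalling, had scaled signals of 1661, 822, 863 and 1221 in AIM-KO, against 154, 313, 759 and 692 in WT, higher in AIM-KO at every week and farthest apart on chow. Its mean diet change was -0.80 in AIM-KO (SE 0.54), against 1.83 in WT (SE 0.54). Csf1 and Il34, the ligands of Csf1r, were singled out after their values were seen. Csf1 had scaled signals of 161, 233, 262 and 378 in AIM-KO, against 170, 274, 318 and 338 in WT. Il34 had 274, 264, 648 and 592 in AIM-KO, against 227, 271, 436 and 655 in WT, so both ligands were brighter at 12 and 20 weeks than on chow in both genotypes.

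Liver X receptor and cholesterol efflux genes (13 of 13 measured) had a median genotype difference of 0.01, and none passed by genotype, diet or trend. A list of genes of IgM, which carries circulating AIM, of IgM receptors, of B cells and of other AIM partners had 8 of 10 measured. Their median difference was -0.07 and none passed either.

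The genes whose signal over the 8 arrays was nearest to the mean course of the 9 markers were found by the root mean square difference of log2 values centred on each gene's mean, among 5795 genes that varied at least 0.8 times as much as that course. They were Ccdc106 (0.106), Pcolce2 (0.139), Kcnj16 (0.156), Poc1b (0.177), A430060F13Rik (0.178), Nfatc4 (0.190), Tlx2 (0.198) and Dmbx1 (0.202), where the median candidate was at 0.604. All 8 lay below the scaled 75th percentile of 284, with scaled signals between 25.3 and 204.8, and Ccdc106, A430060F13Rik and Dmbx1 were well above background on 6, 7 and 3 of the 8 arrays. Of the 9 markers, Vsig4 was the nearest to their own mean course (0.179), and Timd4, Cd163 and Marco were the farthest (0.572, 0.577 and 0.578), so the mean course stands for none of these 3.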

How the data were processed

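The deposited scanner output holds processed signal intensity. Per the file headers it came from Feature Extraction 9.5.3.1 on array design 014868 (version 9.5 per the submitters' processing notes), with background and spatial trend already removed. The deposited log2 values of the same arrays differed from the values used here by a median of 0.00106. Raw mean and background intensity in the deposited files served only an alternative background correction.

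Control spots (1639) were dropped. Spots marked as outliers on an array (75 to 130) were left out where their probe had another spot and kept where it had none. Repeat spots were averaged by probe, and each array's 75th percentile was subtracted on the log2 scale. Probes well above background on at least 2 arrays were kept (21385). The brightest probe stood for a gene, which left 15342 genes. RefSeq gave current names for 24375 of the 41174 probes. Probe positions are mm8, as in the files; no genome was used.

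Files were read with the data.table package, version 1.17.8, in R 4.3.3. Limma 3.58.1 fitted genotype with week as a factor (3 residual degrees of freedom), 4 cells of genotype by chow or diet (4), and a line over the diet weeks of each genotype with chow as its own term (2), with Benjamini-Hochberg adjustment over all genes at 0.05. Weeks stand in for replicates, so p-values measure only the spread between these 8 arrays, whose number limits the precision; the lone chow array of a genotype is assumed to vary like the others. Single weeks set 1 array against 1, with no test. The markers and lists were chosen with earlier results of these data known. Named are all 10 genes, per list every called gene and at most 4 others by size of genotype difference (Csf1 and Il34 were added after their values were seen), and the 8 genes of nearest course. The alternatives were quantile normalization, normexp background correction, other filters on dim probes, the mean of a gene's probes, the deposited table, leaving out each week, and lines over other weeks. The scripts were tested on simulated data.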

Additional observations from a re-analysis of the deposited data

How the results depend on the processing

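Of the values of single genes under the alternatives, 518 kept their direction and side of the threshold and 22 had the opposite sign. The Cd5l genotype call held under all alternatives run. The count of all genes called by genotype was 5, with 4 to 5 under the processing alternatives and 1 without each single week. Without the 20-week pair the genotype difference was 0.026 for Adgre1 and 0.061 for Cd68 (lowest without the chow pair, -0.21 and -0.19), and without 6 weeks the WT diet change of Timd4 was -0.13. With the mean of a gene's probes, which for Csf1r takes in its dim probe, the interaction of Csf1r was 0.11. With quantile normalization the difference of the lines was -0.046 for Cd5l and -0.031 for Clec4f. With the line drawn over 0 to 20 weeks, the fitted change in WT was 0.56 for Cd5l, 0.43 for Cd163 and 0.087 for Folr2 (median of the 9 markers 0.43), in AIM-KO 0.36 for Cd5l and 0.41 for Cd68, and the difference -0.20 for Cd5l and -0.25 for Clec4f. With the line drawn over 0 to 12 weeks, without the 20-week pair, it was in WT 1.61 for Cd5l, 0.19 for Marco, 0.20 for Cd163 and 0.36 for Folr2 (median 0.36), in AIM-KO 1.08 for Cd5l and 1.55 for Cd68 (median 0.20), and the difference -0.53 for Cd5l, -0.50 for Clec4f and 0.066 for Csf1r. These 2 lines include the chow array. The cause of the other reversals was not tested. Marco and Timd4 stayed negative in AIM-KO under both lines (-1.61 and -1.69 over 0 to 20 weeks, -1.49 and -1.71 over 0 to 12). Cd163 and Vsig4 stayed negative too but came to -0.70 and -0.49 over 0 to 12 weeks, against -2.03 and -0.82 over 6 to 20. Timd4 depended on the background correction. With normexp its fitted change over 6 to 20 weeks in AIM-KO was -1.11, against -1.90, where Marco had -1.84, against -1.98. The genotype difference of Timd4 was then -0.59, against -0.93, and its diet change in AIM-KO was -0.89, against -1.37. Leaving out 1 week gave a median of the 9 of -0.38 to -0.28 by genotype, 0.46 to 0.58 for diet in WT, 0.06 to 0.15 for diet in AIM-KO and -0.56 to -0.40 for the interaction. The slide as a block was not run, because each genotype lies on 1 slide. No paired analysis was possible because, by replicate number, each group holds 1 sample and the groups share only number 1; the genotype test already sets arrays of the same week against each other through its week term.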
